A study of Drosophila melanogaster with 2 samples.

Results

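Cuticle protein genes encode the structural proteins that are secreted by epidermal cells and packed with chitin into the insect exoskeleton. They were taken as all protein-coding genes whose symbol begins with Cpr followed by a digit, Lcp, Ccp84, Pcp or Twdl in the Ensembl 115 annotation, and 118 of the 13945 protein-coding genes on 6 chromosome arms met that rule. The rule itself uses names and no measured value, although the family was picked with earlier results of these data known. It gave 70 Cpr genes, 25 Twdl genes, 15 Lcp genes, 7 Ccp84 genes and Pcp. The study mapped Gcm2 by chromatin immunoprecipitation and sequencing (ChIP-seq) in whole embryos of Drosophila melanogaster, both sexes mixed, aged 0-24 h. The embryos came from the transgenic strain gcm2-GFP, in which GFP is fused to the C terminus of Gcm2, and an anti-GFP antibody was used. There was 1 group, with biological replicates labelled 2 and 3, and sonicated fragments spanned 200 to 800 bp. No untagged or input library was analysed here, so all values compare genes or regions within these libraries. In whole embryos, binding in few cells and weak binding in many cells cannot be told apart.

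The Cpr proteins carry the Rebers and Riddiford sequence, through which many arthropod cuticle proteins bind chitin. The Lcp, Ccp84 and Pcp genes bear older names for larval and pupal cuticle proteins, many of which also belong to that family. The Tweedle proteins, encoded by the Twdl genes, form a separate family first known from a mutation that makes larvae and pupae short and stout. Many cuticle protein genes stand in tandem arrays and are transcribed in epidermis and trachea late in embryogenesis and around each molt. Gcm2 and its paralog Gcm are transcription factors known for their roles in glia and in blood cells. The gene list rests on the annotation's names, and no expression or protein measurement was available to check it.

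Each deposited list gives regions with a summit, the position of the strongest signal, and with the authors' enrichment value (signal), which was used only to rank regions within a list. The 3 candidate lists (pooled, replicate 2, replicate 3) hold 30000 regions each, background included. The final list, made by the authors with the irreproducible discovery rate (IDR), holds 2177 regions, which have the same rank in the pooled list. A q-value of at most 0.05 was reached by 6821 of the 30000 pooled regions, so most candidates did not pass even that limit. Read depth is unknown, and the 95% Wilson intervals given for shares cover counting error only.

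Sequences at 5 summits near cuticle genes are shown because they tell which DNA carried the signal at strong, middle and weak ranks and in several families. They were chosen after their values were seen and were read from the plus strand of the Release 6 genome (dm6), each covering 101 bases centred on the summit. Capitals mark a match to 1 of 4 GCM octamers (ATGCGGGT, ATGCGGGC, ATACGGGT and ATACGGGC, searched on both strands), the letters known to be bound by Gcm proteins. The first is the final-list region at Cpr73D (3L:16956847-16956947, rank 2005). The next is the best region of the second-ranked gene, upstream of Cpr67Fb (3L:10893325-10893425, rank 3568). The third lies beside Cpr65Ay (3L:6157628-6157728, rank 6277), and the fourth lies in the coding exon of Pcp (2L:7022063-7022163, rank 8970). The fifth, in the coding exon of TwdlN (3R:26631959-26632059, rank 19898), has the median rank of all summits near cuticle genes.
Cpr73D: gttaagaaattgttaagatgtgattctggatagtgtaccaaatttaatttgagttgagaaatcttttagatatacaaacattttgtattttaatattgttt
Cpr67Fb: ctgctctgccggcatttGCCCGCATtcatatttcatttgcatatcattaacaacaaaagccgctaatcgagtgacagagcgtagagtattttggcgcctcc
Cpr65Ay: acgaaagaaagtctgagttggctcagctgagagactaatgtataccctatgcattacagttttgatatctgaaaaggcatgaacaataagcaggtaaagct
Pcp: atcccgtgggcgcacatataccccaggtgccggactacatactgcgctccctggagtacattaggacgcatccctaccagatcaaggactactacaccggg
TwdlN: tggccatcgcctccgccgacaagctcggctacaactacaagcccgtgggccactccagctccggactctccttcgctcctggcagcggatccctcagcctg

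These 5 stretches differ widely in base composition. The Cpr73D stretch was 22.8% GC, the Cpr67Fb stretch 46.5%, the Cpr65Ay stretch 38.6%, the Pcp stretch 57.4% and the TwdlN stretch 66.3%. Cpr67Fb is the only one of the 5 with an octamer in its printed stretch, on the minus strand at 3L:10893342-10893349, with its nearest base 26 bp from the summit.

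The first question was how many cuticle genes had a summit within 1 kb of a transcription start site (TSS). In the final IDR list 1 of 118 cuticle genes had one (0.847%, interval 0.15% to 4.64%), against 12.7% of all protein-coding genes. That gene was Cpr73D. The strongest 2177 regions of each replicate also reached 1 cuticle gene, again Cpr73D in both, against 12.8% of all genes in replicate 2 and 12.7% in replicate 3. In the pooled candidate list 33 cuticle genes had a summit (28%, interval 20.7% to 36.7%), against 62.6% of all genes. Replicate 2's list reached 28 cuticle genes (23.7%) against 62.5% of all genes, and replicate 3's list reached 31 (26.3%) against 62.4%. The replicates' mean was 25% ± 1.8 for cuticle genes and 62.4% ± 0.0811 for all genes (SD, n = 2). Among pooled regions with a q-value of at most 0.05, 4 cuticle genes were reached (3.39%), namely Cpr73D, Cpr67Fb, Lcp9 and Cpr65Ay, against 31.1% of all genes. In each list the interval of the cuticle genes lay below that of the other genes. These intervals treat genes as independent, although neighbouring cuticle genes can share a summit, so they may be too narrow.

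**Figure D1:**
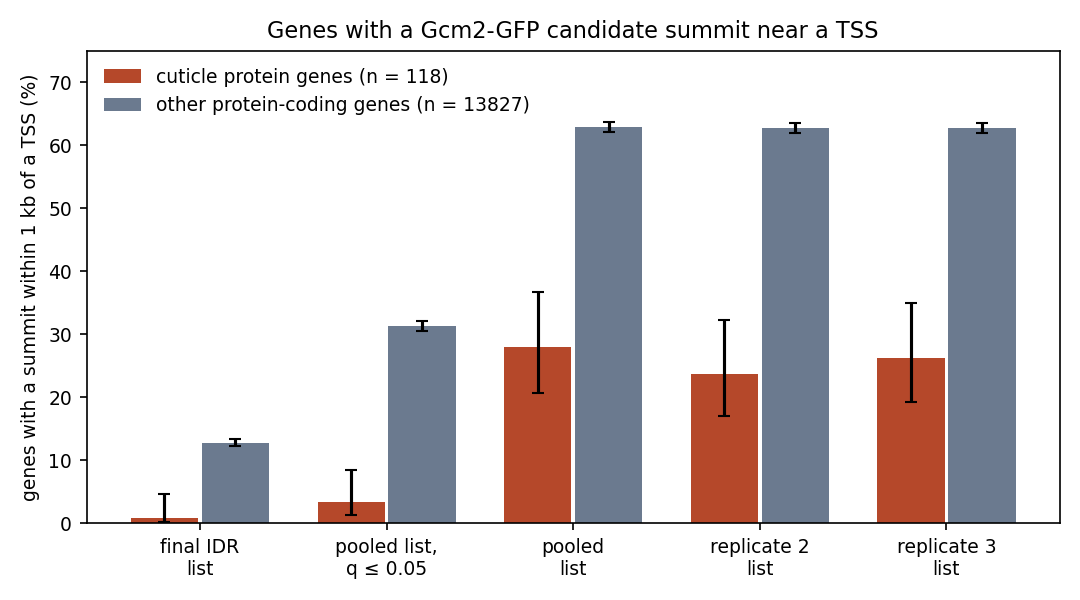
Share of genes (vertical axis, percent) with a summit within 1 kb of a TSS in each list, for cuticle protein genes and for other protein-coding genes, with bars from 0 and 95% Wilson intervals. Cuticle genes lie lower in all 5 lists, at 28% in the pooled list against 62.9% of other genes.

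Cuticle genes are mostly short and have a single TSS, so they were also set beside genes of the same kind. Their median length was 970 bp, against 2182 bp for other genes, and 91.5% had 1 TSS, against 73.3% of other genes. Among genes with 1 TSS, 31 of 108 cuticle genes (28.7%) had a pooled summit, against 55.9% of all such genes. Among genes with 1 TSS and under 2 kb long, the count was 27 of 96 (28.1%) against 46.8%. The gap was thus narrower among short genes with 1 TSS than among all genes. Base composition around the TSS was close, at 44.2% ± 4.06 GC in cuticle genes and 43.5% ± 4.59 in other genes (SD over genes, 2 kb windows).

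Repeated sequence, where reads cannot be placed with certainty, was measured as the share of 32-base words in the 2 kb window that occur elsewhere in the genome. More than 20% was repeated in 8 cuticle genes, among them Lcp65Ab1 at 73.7%, Lcp65Ab2 at 72.9%, Cpr65Ax1 at 63.7% and Cpr65Ax2 at 62.8%, which are near-identical copies of each other in pairs. None of these 8 had a pooled summit, against 19.8% of the 521 other genes over 20% repeated. A count of 0 in 8 genes allows a share of up to 37.5%, which holds the 19.8%. How the authors treated reads with several matches is not given in the sources used here. Among genes under 1% repeated, 27 of 94 cuticle genes (28.7%) had a pooled summit, against 65.4% of other genes.

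By family name the counts were small, and each stands beside the 62.6% of all genes. Of the Cpr genes, 20 of 70 had a pooled summit (28.6%, interval 19.3% to 40.1%). Of the Twdl genes, 8 of 25 had one (32%, interval 17.2% to 51.6%), and 3 of the 7 Ccp84 genes did (42.9%, interval 15.8% to 75%). Of the Lcp genes only Lcp9 had one, 1 of 15 (6.67%, interval 1.19% to 29.8%), and the 4 named Lcp1 to Lcp4 had none in any list. Pcp had one. All 5 intervals overlap, so an order of the families cannot be read from these counts.

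By chromosome arm, the 8 cuticle genes on X, Cpr5C, Cpr11A, Cpr11B, Cpr12A, TwdlX, TwdlY, TwdlZ and Twdlalpha, had no summit within 1 kb in any of the lists, a count that allows a share of up to 37.5%. That limit, also used above for the repeated genes and below for the GCM octamer, is 3 divided by the number of genes. It is not a Wilson interval. Of all protein-coding genes on X, 62% had a pooled summit. On 2L, 5 of the 7 cuticle genes had one (71.4%, interval 35.9% to 91.8%), against 59% of all genes there. On 3L the count was 11 of 45 (24.4%) against 63.1% of all genes there, on 3R 10 of 31 (32.3%) against 64%, and on 2R 7 of 27 (25.9%) against 64.1%.

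The only final-list region near a cuticle gene was not closest to it. Cpr73D, a chitin-binding family gene of 18590 bp with 2 TSSs on the minus strand of 3L, had the summit 792 bp inside its distal TSS. The region (3L:16956665-16957128, summit 16956897) ranked 2005 in the pooled list with signal 60.03, near the weak end of the 2177 regions. It ranked 1695 in replicate 2 and 1915 in replicate 3, so both libraries carried it at a like rank. The summit lies in an intron, and its nearest TSS is that of Ogdh, a subunit of the oxoglutarate dehydrogenase complex of mitochondria, at 542 bp. A count within 500 bp therefore leaves no cuticle gene with a final-list summit.

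Cpr73D had more pooled summits near it. One lay 149 bp upstream of its distal TSS, at rank 4250 in the pooled list and 4864 in replicate 2, with none within 100 bp in replicate 3. Another lay 365 bp upstream, at rank 5719 pooled, 5863 in replicate 2 and 5253 in replicate 3. Of the 3 summits, those at 792 bp and 365 bp were found in both replicates. Both upstream summits lie outside Cpr73D, in an intron of another gene, and their regions overlap.

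Cpr67Fb, also of the chitin-binding family, came second. A summit 798 bp upstream of its TSS ranked 3568 in the pooled list, with signal 44.35 and a q-value of 9.81e-04, and ranked 3859 in replicate 2 and 5136 in replicate 3. Its printed stretch is the one with the GCM octamer. A weaker summit 577 bp upstream ranked 12696 and was matched in neither replicate.

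Lcp9, a larval cuticle protein gene on 2R, had a summit 134 bp upstream that ranked 5407 in the pooled list, 9578 in replicate 2 and 9595 in replicate 3. Its other summit, at rank 6910, lay nearer to CG3594, 80 bp away. Cpr65Ay had a summit 952 bp downstream of its TSS at rank 6277 pooled, 11220 in replicate 2 and 6388 in replicate 3, and CG13297 was nearer at 301 bp. So 2 of the 4 genes with a q-value of at most 0.05, Cpr73D and Cpr65Ay, had their strongest summit nearer to a gene outside the family.

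The following genes had weaker summits, with q-values above 0.05. Pcp, a pupal cuticle protein gene known for being nested in an intron of ade3, had a summit 431 bp downstream at rank 8970 pooled and 7239 in replicate 3 but only 26890 in replicate 2. Cpr72Eb, 438 bp upstream, ranked 8356 pooled and 5049 in replicate 3 and had no match in replicate 2. Cpr65Av, 350 bp upstream, ranked 10395 pooled and 5839 in replicate 2 and had no match in replicate 3. These ranks differ widely between the libraries, or are missing from one.

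The Tweedle genes had no summit in the strongest 10000 pooled regions. TwdlB ranked 14071 pooled and 9248 in replicate 2, 20 bp from its TSS, with no match in replicate 3. TwdlW ranked 14423 pooled and 8007 in replicate 3, with no match in replicate 2. TwdlG ranked 15612 pooled and 18567 in replicate 2, with no match in replicate 3. None of these 3 Tweedle summits was found in both libraries. The remaining members of the 12 best ranked were Cpr67B, at 15369 pooled and 24239 in replicate 3, and Ccp84Ag, at 15495 pooled, 27635 in replicate 2 and 16718 in replicate 3. Beyond the best 12, 21 more cuticle genes had a pooled summit, with best ranks from 16821 to 29365.

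Among genes that had a pooled summit at all, the cuticle genes' summits were weak. Their best pooled rank had a median of 19898 (2005 to 29365, 33 genes), against 6919 for all genes with a summit. In replicate 2 the median was 20767 for cuticle genes against 7221.5 for all genes, and in replicate 3 it was 14801 for cuticle genes against 6921 for all genes. Of the 33 cuticle genes, 6 had a summit in the strongest 10000 pooled regions (18.2%), against 62.7% of all genes with a summit, and 15 had their best summit in the weakest 10000 (45.5%), against 13%. These medians are over the genes that have a summit, not over all members.

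**Figure D2:**
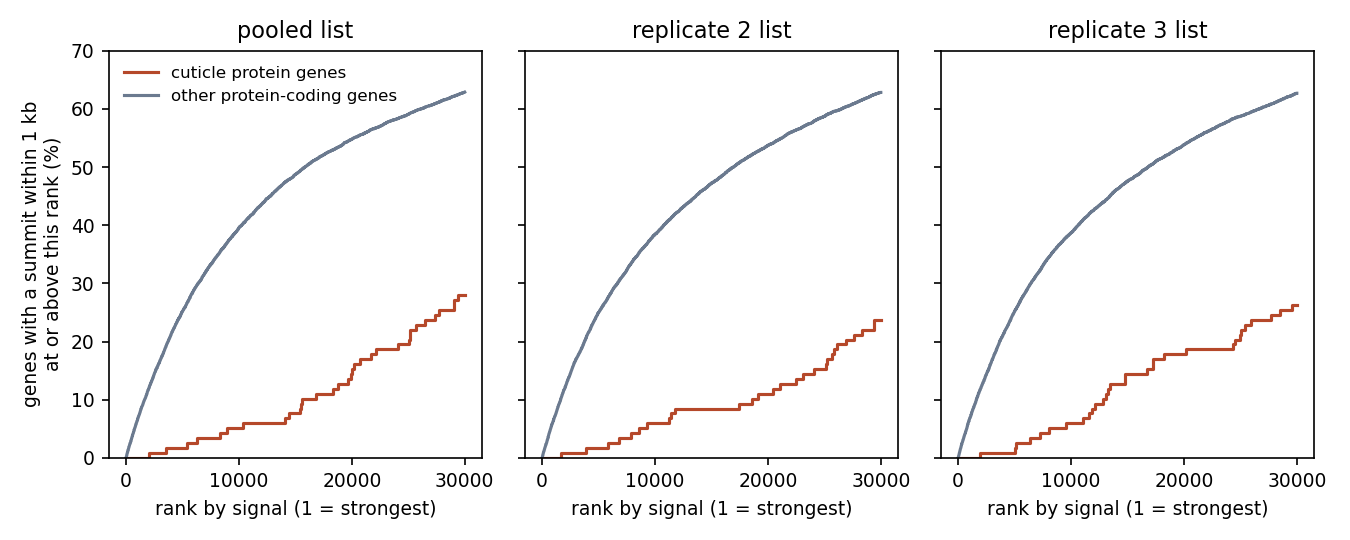
Cumulative share of genes (vertical axis, percent) with a summit within 1 kb of a TSS at or above a given rank by signal (horizontal axis, 1 is the strongest), for cuticle and other protein-coding genes, in the pooled and the replicate lists. The cuticle curve stays under the other curve at every rank, and in the pooled list it begins at 2005.

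The replicates named mostly different cuticle genes. Of the 28 cuticle genes reached in replicate 2 and the 31 in replicate 3, 10 were the same, which is 35.7% of the first set and 32.3% of the second. For all protein-coding genes the shared part was 85.3% of those in replicate 2 and 85.5% of those in replicate 3. The 10 genes were Cpr73D, Cpr67Fb, Lcp9, Cpr65Ay, Pcp, Cpr67B, Ccp84Ag, Cpr30B, Cpr57A and Cpr64Aa, and all 10 also had a pooled summit. A further 21 cuticle genes had a summit in 1 replicate's list and none in the pooled list, with ranks from 11458 to 29445. Adding the replicates' lists thus raised the number of cuticle genes with a summit from 33 to 54 of 118. For all genes it raised the number from 8728 to 10103 of 13945. A summit was missing from all 3 candidate lists for 64 cuticle genes (54.2%), against 27.6% of all genes. So the number of cuticle genes reached was alike in both libraries while most of the genes differed. The part shared between the libraries also depends on how many genes each list reaches, and it was not adjusted for that. Replicates 2 and 3 reached 23.7% and 26.3% of cuticle genes, against 62.5% and 62.4% of all genes.

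Single summits were likewise mostly not matched in both libraries. There were 41 distinct pooled summits within 1 kb of a cuticle TSS, and 8 of them had a summit within 100 bp in both replicates (19.5%, interval 10.2% to 34%), against 40.5% of the 13067 pooled summits near any protein-coding gene. The share depends on the distance allowed: within 250 bp 13 of the 41 were matched in both (31.7%, interval 19.6% to 47%), against 59.9% near any gene, and by any overlap of the regions 15 were (36.6%, interval 23.6% to 51.9%), against 69.4%. Within 50 bp 7 were (17.1%, interval 8.53% to 31.3%), an interval that holds the 27.6% near any gene. At 100 bp another 8 were matched in neither replicate (19.5%), against 10.6%. Rank goes with this share in all genes, so it was split there. Among the strongest 10000 pooled regions, the 9 cuticle summits lay near 6 genes. Of the 9, 7 were matched in both (77.8%), against 72% of 5708 near any gene. After rank 10000, 1 of 32 was (3.12%), against 16.1% of 7359. The split at rank 10000 was chosen after the values were seen.

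Summit density gave the same order as the gene counts. In the merged 1 kb windows around cuticle TSSs, 226.38 kb in all, there were 181 pooled summits per Mb, against 484 around other genes and 224 over the 6 arms. Replicate 2 had 155 around cuticle TSSs against 477 around other genes, and replicate 3 had 181 against 467. The final list had 4.42 around cuticle TSSs against 52 around other genes. The cuticle density was thus 0.374 times that of other genes in the pooled list, 0.324 times in replicate 2 and 0.388 times in replicate 3, and 0.808 times the average of the 6 arms in the pooled list.

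Other genes had a sharp maximum just upstream of the TSS that the cuticle genes did not show. In the 250 bp before the main TSS, the cuticle genes had 2.54 pooled summits per 100 genes (3 summits), against 26.5 per 100 other genes. From 250 to 500 bp downstream they had 7.63 (9 summits), against 8.96 per 100 other genes, the smallest gap of the plotted pooled positions. The pooled cuticle values rest on 1 to 9 summits per position and those of replicate 3 on 0 to 11, too few to read ups and downs along the gene.

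**Figure D3:**
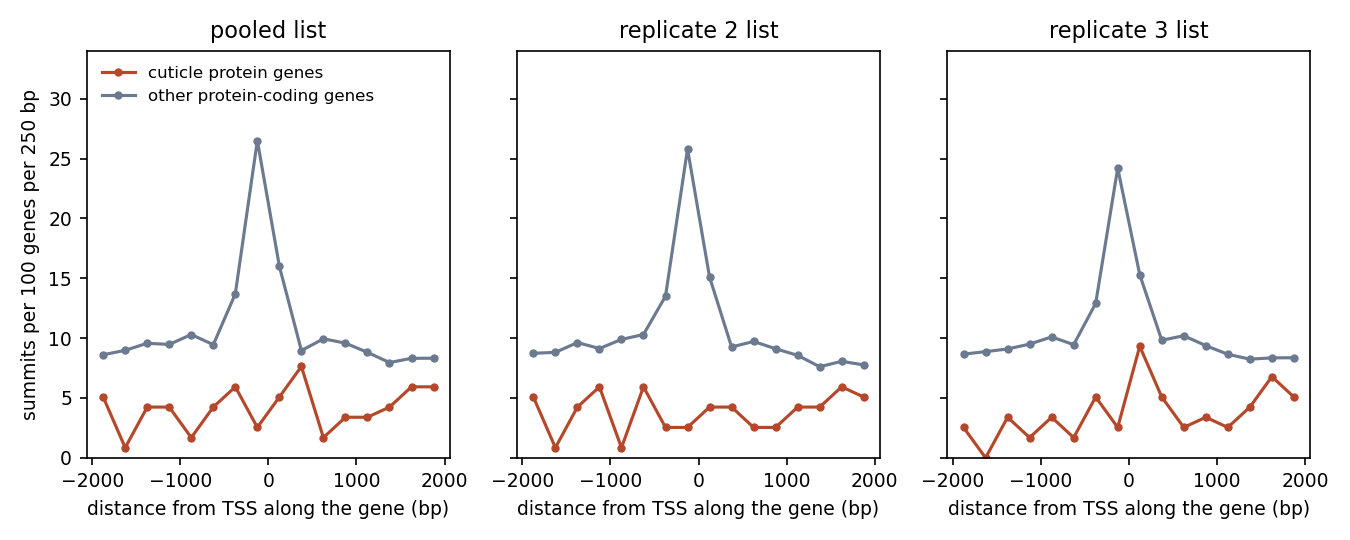
Summits per 100 genes in 250 bp steps (vertical axis) by distance from the main TSS along the direction of transcription (horizontal axis, bp, negative is upstream) for cuticle and other protein-coding genes, in the pooled and the replicate lists. Other genes peak just upstream of the TSS at 26.5 in the pooled list, where cuticle genes have 2.54.

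Most cuticle genes stand in arrays. With neighbouring members at most 20 kb apart, 15 clusters of at least 3 members held 85 of the 118 genes, and 33 lay outside them. With 1 kb added at each end, the clusters spanned 270.9 kb and held 37 pooled summits, or 137 per Mb against 224 over the 6 arms. Replicate 2 had 148 per Mb and replicate 3 had 107, against 224 in both. Fewer pooled summits per Mb than the arms' average were found in 13 of the 15 clusters.

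Inside clusters 17 of 85 genes had a pooled summit near a TSS (20%), against 16 of the 33 genes outside them (48.5%) and 62.6% of all genes. The share outside clusters was close to the 46.8% of all genes with 1 TSS and under 2 kb long, although not all of the 33 are such genes. The 8 cuticle genes over 20% repeated all stand in clusters. No interval was computed for the shares inside and outside clusters. In replicate 3 the share was 17.6% inside clusters and 48.5% outside, against 62.4% of all genes, and in replicate 2 it was 21.2% inside and 30.3% outside, against 62.5%. The gap between clustered and single genes was therefore much smaller in replicate 2. A TSS of a gene outside the list lay within 1 kb of 6 cuticle genes, and 5 of those 6 had a pooled summit (83.3%), against 78.7% of all genes with such a neighbour. Of the 112 cuticle genes without one, 28 had a pooled summit (25%), against 50.5% of all genes without one. The part that neighbouring genes have in these counts was not tested.

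The array with the most genes, Lcp65Ag3 to Cpr65Az on 3L, holds 17 in 33.2 kb, many of them larval cuticle genes. It had 4 pooled summits, 5 in replicate 2 and 4 in replicate 3, and the strongest was the one beside Cpr65Ay at rank 6277. The array of 12 Tweedle genes from TwdlM to TwdlD on 3R had 3 pooled summits in 23.9 kb, the best being that at TwdlB. The Ccp84 array of 7 genes on 3R had 4, with Ccp84Ag best at 15495. No pooled summit fell in the span of Lcp1 to Lcp4 on 2R, where the replicates had none either, nor in that of TwdlX to Twdlalpha on X, where replicate 2 had 1 at rank 18584.

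Only 1 final-list summit fell inside a cluster span. It lay in the 1 kb added beside the Cpr76Ba to Cpr76Bd array on 3L (3L:19516468-19516931), 0.852 kb past the downstream end of Cpr76Ba. This summit was 1632 bp from the TSS of Cpr76Ba, which was the nearest TSS. Its signal was 83.2 at rank 1067, with rank 1523 in replicate 2 and 850 in replicate 3. It is thus stronger than the region at Cpr73D, but outside the 1 kb limit. The pooled summit counted for Cpr76Ba itself ranked 18328. In the Cpr65Ea to Cpr65Ec array the strongest summit ranked 2735 pooled, 3104 in replicate 2 and 4820 in replicate 3, and lay 2109 bp from Cpr65Eb. In 7 of the 13 clusters with a pooled summit, the strongest one lay more than 1 kb from any member's TSS.

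The best ranked gene of each remaining cluster with a pooled summit near a member was Cpr67Fb for Cpr67Fa1 to Cpr67Fb, Cpr72Eb for Cpr72Ea to Cpr72Ec, TwdlG for TwdlF to TwdlV, Cpr64Aa at 25700 and Cpr47Eg at 26467. The short Cpr67F array had the highest pooled density of the clusters, with 4 pooled summits in 6.7 kb, or 597 per Mb. Their regions overlap in pairs, those at Cpr67Fa1 with each other and those at Cpr67Fb with each other. Replicate 2 also had 4 summits there. Replicate 3 had 1, or 149 per Mb, which is below the 224 over the 6 arms.

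**Figure D4:**
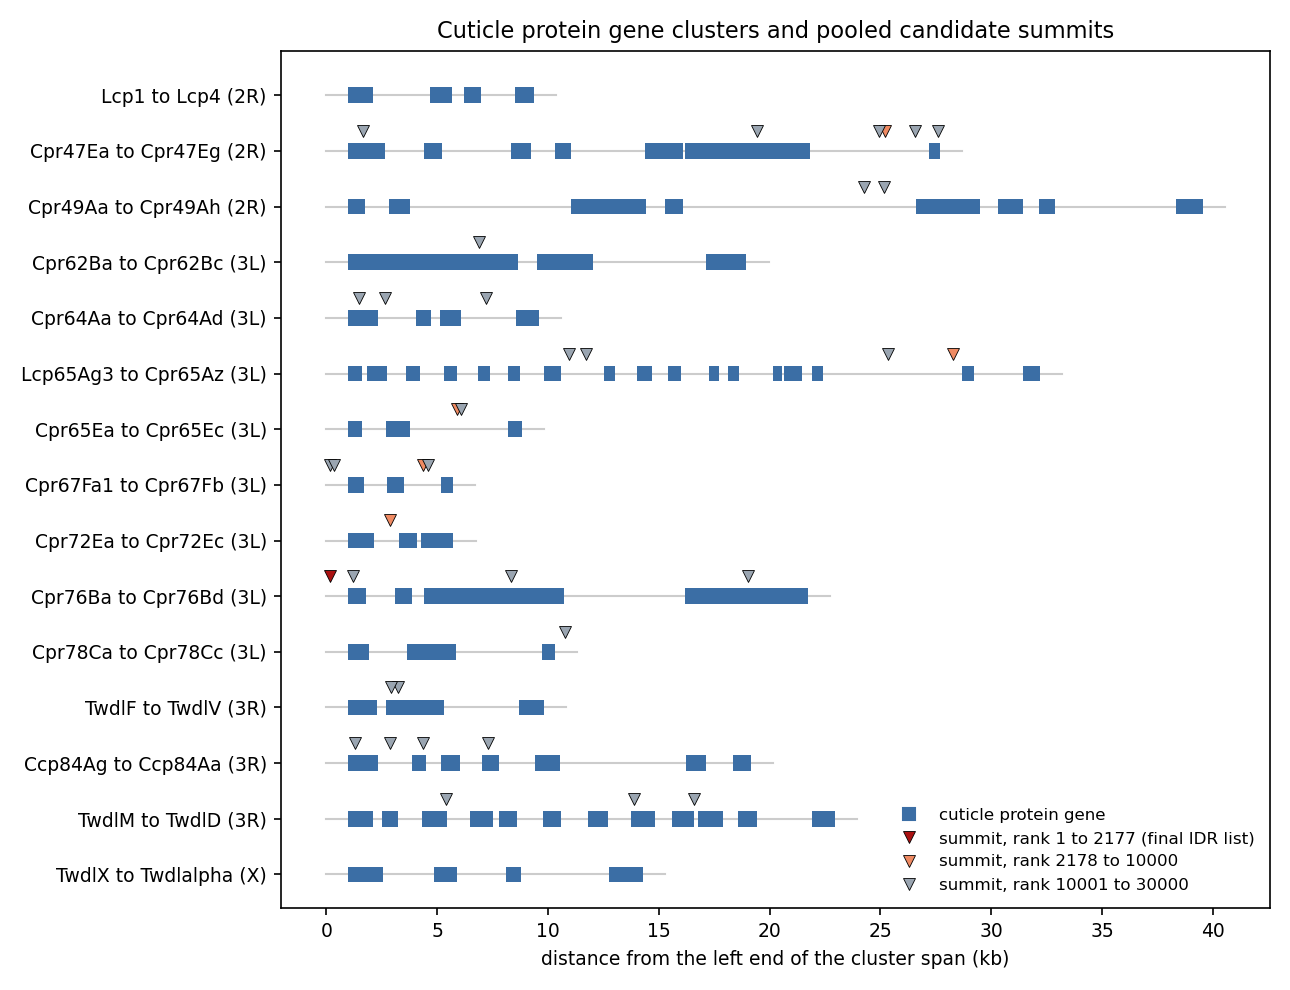
The 15 clusters (rows, with chromosome arm) drawn from the left end of each span (horizontal axis, kb), with cuticle genes as boxes and pooled summits as triangles coloured by rank. A single triangle belongs to the final list, at the left of Cpr76Ba to Cpr76Bd, and 2 clusters have none.

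Distances to the nearest summit showed how isolated these genes are. The nearest final-list summit lay at a median of 32.5 kb from a cuticle gene's TSS and 16.3 kb from that of another gene. The nearest pooled summit lay at a median of 2328 bp from cuticle TSSs and 391 bp from those of other genes.

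The 41 summits often fell in coding sequence. Coding exons held 17 of them (41.5%), against 22.9% of all pooled summits near genes. How much of the 1 kb windows is coding was not measured for either set, so these shares are not adjusted for it. Cuticle genes are shorter, at a median of 970 bp against 2182 bp for other genes. The others were 16 between genes, 6 in introns and 2 in other exons. The nearest TSS belonged to a cuticle gene for 37 of the 41, and 1 summit counted for both TwdlH and TwdlR. Relative to the TSS, 19 lay upstream and 22 downstream, at a median distance of 409 bp. The summits in coding exons were GC-rich, at 58.8% ± 7.46 against 53.9% ± 6.59 for all coding-exon summits near genes (SD over summits, 201 bp windows). Of the 17, 16 were above 50%. The number above 50% was not counted for all coding-exon summits near genes, whose mean is itself above 50%. The cuticle summits between genes were at 39.1% ± 9.09, against 39.5% ± 8.31 for all such summits near genes.

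Place and rank went together. Of the 9 cuticle summits in the strongest 10000 pooled regions, 1 lay in a coding exon (11.1%, the one at Pcp), against 10.1% near any gene. Of the 32 after rank 10000, 16 did (50%), against 32.9%. Both replicates matched 2 of the 17 coding-exon summits, those at Pcp and Ccp84Ag (11.8%), against 22.2% of all coding-exon summits near genes. They matched 4 of the 16 between genes (25%), against 52% of all such summits near genes. The strong cuticle summits were thus mostly outside exons and seen in both libraries. The weak ones were often in GC-rich exons and seen in 1 or neither. The 9 strong summits lay near only 6 genes, with several at Cpr73D and more than 1 at Lcp9, where some regions overlap. Of the 4 summits nearest to a TSS outside the family, all but that at Cpr57A were among these 9. Whether base composition has a part in the weak regions was not tested.

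**Figure D5:**
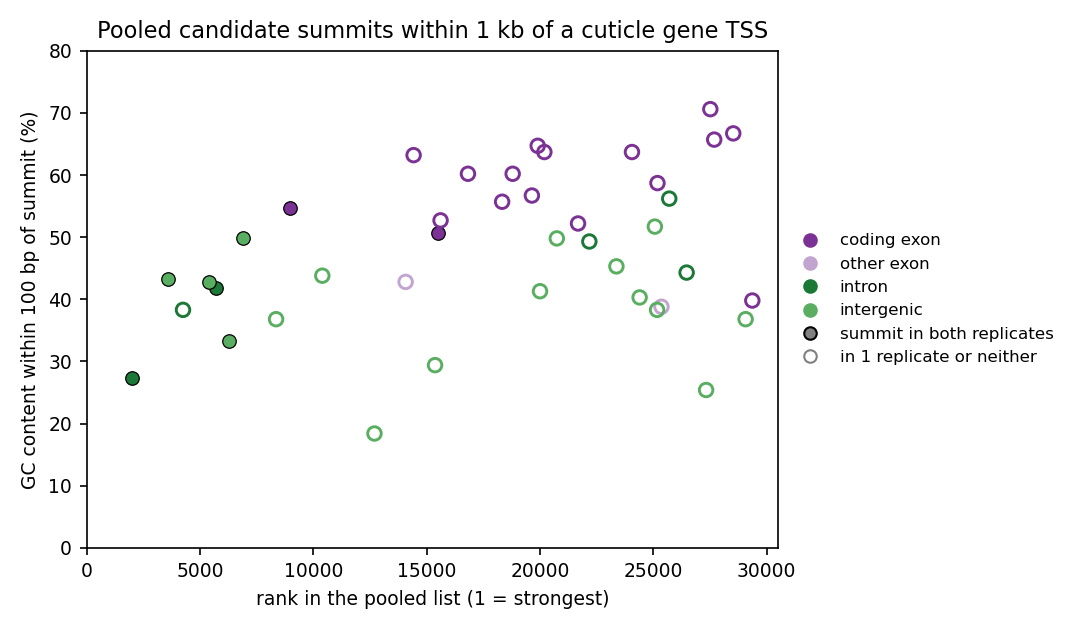
GC content within 100 bp of the summit (vertical axis, percent) by rank in the pooled list (horizontal axis, 1 is the strongest) for the 41 pooled summits near cuticle TSSs, coloured by place, filled where both replicates had a summit within 100 bp. Of the filled points 7 lie before rank 10000, and 16 of the 17 coding-exon points lie above 50%.

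The promoters of the cuticle genes share a feature that the symbol rule did not use. The hexamer TATAAA, the core of the TATA box at which transcription of many regulated genes is set, was searched on the gene's own strand from 45 to 11 bp before the main TSS. It was present in 75 of 118 cuticle genes (63.6%), against 9.21% of all protein-coding genes, and its start lay at a median of 29 bp before the TSS. By family it was found in 42 of 70 Cpr genes, 15 of 25 Twdl genes, 12 of 15 Lcp genes, 5 of 7 Ccp84 genes and Pcp. The hexamer and window were chosen after other TATA variants had been looked at in these promoters. The 50 bases before the TSS of 1 gene of each family, on the gene's strand with TATAAA in capitals, show what the element looks like under each family name. These 5 were picked among the genes that have it, and over all 75 its start lay 18 to 45 bp before the TSS.
Cpr72Eb (3L:16364849-16364898, plus strand): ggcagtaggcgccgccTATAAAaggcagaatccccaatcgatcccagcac
Lcp65Ag3 (3L:6130990-6131039, minus strand): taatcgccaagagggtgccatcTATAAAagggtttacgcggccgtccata
Ccp84Ag (3R:6686678-6686727, plus strand): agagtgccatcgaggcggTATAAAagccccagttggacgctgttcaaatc
Pcp (2L:7021632-7021681, plus strand): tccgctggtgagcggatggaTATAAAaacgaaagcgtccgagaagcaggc
TwdlW (3R:17142405-17142454, minus strand): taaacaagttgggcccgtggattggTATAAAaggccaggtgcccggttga

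Genes with that hexamer had fewer summits across the whole annotation. Of all protein-coding genes with it, 37.2% had a pooled summit, against 65.2% of those without, and in the final list 4.59% of genes with it had a summit, against 13.5% of those without. Within the cuticle genes the shares were close, at 22 of 75 with the hexamer (29.3%, interval 20.2% to 40.4%) and 11 of 43 without it (25.6%, interval 14.9% to 40.2%). The first interval holds the 37.2% of all genes with the hexamer, and the second lies below the 65.2% of all genes without it. In replicate 2, 18 of the 75 cuticle genes with the hexamer had a summit (24%, interval 15.8% to 34.8%), against 35.7% of all genes with it, and in replicate 3, 21 did (28%, interval 19.1% to 39%), against 38.6%. In the final list 0 of the 75 had one (interval 0% to 4.87%), an interval that holds the 4.59% of all genes with the hexamer. Among genes with the hexamer the cuticle share was thus lower in each list by a margin near the edge of its interval.

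Other promoter letters were also counted. The DRE letters TATCGATA, known to be bound by the factor Dref, occurred in the 300 bp promoter (250 bp before to 50 bp after the main TSS, both strands) of 1 cuticle gene (0.847%), against 8.94% of all genes. Genes with the DRE letters had a pooled summit in 85.7% of cases, and those without in 60.3%. The letters GAGAGAG, of the kind bound by GAGA factor, occurred in 1 cuticle promoter (0.847%) against 6.2%. A GCM octamer occurred in no cuticle promoter, a count that allows a share of up to 2.54%, against 0.954% of all promoters. Within 1 kb of the main TSS it occurred in 6 cuticle genes (5.08%) against 10.7% of all genes. Those 6 were Cpr49Aa, Cpr49Ab, Cpr65Ay, Cpr67Fb, Cpr76Bd and Cpr92A, all of the Cpr family, and 2 of them had a pooled summit (33.3%), against 66.7% of all genes with an octamer within 1 kb.

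Within 100 bp of the 41 summits, a GCM octamer occurred at 2 (4.88%), against 1.47% of pooled summits near any gene. They were the summit of Cpr67Fb shown among the sequences and that of TwdlG, where the letters stood at 3R:4249174-4249181, with the nearest base 54 bp from the summit. The 2 summits differ in strength and repeatability, with rank 3568 and a match in both replicates at Cpr67Fb and rank 15612 and a match in replicate 2 only at TwdlG. A match is a description of letters and not a measured site.

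Other genes of cuticle building gave a mixed picture. Of 19 other cuticle and apical matrix protein genes, 10 had a pooled summit (52.6%) and 0 a final-list summit, against 62.6% and 12.7% of all genes. Of 20 genes of chitin synthesis and organisation, 13 had a pooled summit (65%) and 2 a final-list summit (10%), both chitinase genes on 3L, and each share is close to that of all genes, 62.6% and 12.7%. Cht7 had it 197 bp from a TSS at rank 461 with signal 125, ranked 629 in replicate 2 and 360 in replicate 3. Cht2 had it 63 bp from a TSS at rank 1778 with signal 63.8, ranked 3735 in replicate 2 and 1191 in replicate 3. Of 9 tanning and pigment genes 7 had a pooled summit (77.8%), and of 12 genes for factors that act on cuticle genes 11 did (91.7%), with 0 final-list summits in either. The cuticle protein genes' 28% thus lay below the share in each of these 4 lists. The list of 19 joins cuticle proteins with other matrix proteins and was not split by kind. In it Edg84A, Edg91, Tb, Vajk1, Vajk2, Vajk4, dpy, pio, tyn and neo had a pooled summit. Acp1, Acp65Aa, Edg78E, Crys, resilin, Vajk3, dy, m and nyo had none. Its share is therefore not that of cuticle proteins outside the symbol rule. The lists are small, and the differences were not tested. A count of 0 in lists of 9 to 19 genes does not show a share below the 12.7% of all genes.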

How the data were processed

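Binding of Gcm2-GFP was measured by ChIP-seq in 2 biological replicates of 1 group. Per the deposited file notes, candidate regions were called by the authors for each replicate with a control file and for both replicates pooled, and IDR over these lists gave the final regions, all in dm6. The authors' signal value of each region is a score of unstated scale and was used only for rank. The deposited −log10 q-value and the summit offset are also the authors'. The sources used here do not name the aligner, the caller or the IDR threshold, and read depth is unknown.

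Summits were matched to every TSS of the Ensembl 115 protein-coding genes on 6 arms in Python 3.11.15 with numpy 2.4.6, pandas 2.3.3 and scipy 1.17.1. A summit within 1 kb counted, and 100 bp joined summits between lists. Matching was checked on simulated positions. With 1 group, and no control library analysed here, no test between conditions was possible, and no p-value is given. The members and lists were chosen with earlier results of these data known. The promoter motifs, the rank split, the repeat measure and the split by neighbouring genes were chosen after the data were seen, and several other motifs, among them longer and shorter TATA forms, were looked at. Named genes are those with an IDR summit, the 12 best by pooled rank, the best of each cluster and, from the other lists, those with an IDR summit. Other genes named, including those on X, with repeats or with octamers, were chosen after their values were seen. Sequences were read from the Release 6 genome.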

Additional observations from a re-analysis of the deposited data

How the results depend on the processing

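Other settings were tried 30 times, 4 of them chosen after seeing the data, and 10 moved a value. A count was taken as moved when it changed by more than 1.5 times, and a rank or density when it changed by at least 1 SD between the replicates. The count of cuticle genes with a final-list summit was 0 within 500 bp (10.8% of all genes) and 2 within 2 kb (15.9% of all genes), where Cpr76Ba was added. It was 0 among the regions of that list above its median signal, where the share of all genes was not counted. With each replicate's strongest regions alone it was 1, against 12.8% of all genes in replicate 2 and 12.7% in replicate 3. The 33 cuticle genes with a pooled summit became 23 at 500 bp (53.3% of all genes) and 49 at 2 kb (72% of all genes). At a q-value of at most 0.05 they became 4, against 31.1% of all genes. With each replicate left out in turn the count was 28 to 31, the median best rank 14801 to 20767 and the density 155 to 181 per Mb, so the median rank rests in part on which library is used. The density was 219 per Mb at 500 bp (595 around other genes). At a q-value of at most 0.05 it was 26.5 per Mb, against 152 around other genes and 50.9 over the 6 arms. The count of cuticle summits found in both replicates was 13 within 250 bp (31.7%, against 59.9% near any gene) and 15 by any overlap (36.6% against 69.4%), and 8 within 100 bp (19.5% against 40.5%), while the count of clustered genes stayed between 84 and 88. The 4 settings chosen after seeing the data each left out part of the members and gave 27 to 31 genes. Each kept most members, so the count had little room to move, and its small change is not a check. The shares were 31 of 108 members with 1 TSS (28.7%, against 55.9% of all such genes) and 27 of 96 also under 2 kb (28.1% against 46.8%). They were 28 of 112 with no outside TSS nearby (25% against 50.5%) and 27 of 94 under 1% repeated (28.7% against 65.1%). No paired analysis was possible because there is only 1 group. With peak lists alone, a gene without a summit has no measured level, so weak binding under the list's limit cannot be told apart from none.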
